A study of Mus musculus with 3 samples.

Results

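The 10 genes described here encode the machinery that loads peptides onto major histocompatibility complex (MHC) class II molecules. They were chosen by name and not by their values: H2-Aa, H2-Ab1, H2-Eb1, H2-DMa, H2-DMb1, H2-DMb2, H2-Oa, H2-Ob, Cd74 and Ciita. They are 10 of the 32285 genes in the matrices, and all 10 were found. Their UMIs (unique molecular identifiers, each standing for 1 captured transcript) were read in 19109 cells, the barcodes with at least 500 UMIs, at least 200 genes and at most 10% mitochondrial UMIs.

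The cells came from the large intestine of C57BL/6J mice with colitis caused by dextran sulfate sodium (DSS), a polymer in the drinking water that injures the gut lining. The 3 groups were DATK32, MECA-367 and rat IgG, the control antibody, and each is 1 library of lamina propria mononuclear cells sorted as viable and CD45-positive. All groups shared the colitis, 7 days of 1.5% DSS followed by 3 days of plain water, and received 250 µg of antibody 3 times a week. How many animals stand behind each library is not given in the labels, so no difference below has a replicate check, and antibody and library cannot be told apart. The labels pair DATK32 with ontamalimab and MECA-367 with vedolizumab. DATK32 is generally known as an antibody to the integrin α4β7, the molecule that vedolizumab binds, and MECA-367 as an antibody to MAdCAM-1, the molecule that ontamalimab binds, so the groups carry the clone names only.

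MHC class II molecules present peptides from endocytosed proteins to CD4-positive T cells. The chains pair in the endoplasmic reticulum with the invariant chain, encoded by Cd74, which blocks the groove and steers the complex to endosomes; there proteases trim it, and the editor H2-DM exchanges the last fragment for a peptide, while H2-O holds H2-DM back. Ciita is the coactivator that switches the whole set on, through factors bound to an X box and a Y box in each promoter. B cells, dendritic cells and macrophages do this constitutively, whereas gut epithelium, endothelium and stroma are known to do so after interferon gamma.

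Promoter sequences are shown because they carry the shared control element by which these genes are known. RefSeq promoter entries (GRCm38.p6) matched 7 of the 10 genes, with 8 windows, since H2-DMa has 2 entries. H2-Ab1, Cd74 and Ciita had no entry. Capitals mark TGATTGG, the Y box around its CCAAT core (read on the other strand as CCAATCA), and ATGATGC, a short stretch as found in X2 boxes (GCATCAT on the other strand). Each line holds the 120 bases just upstream of the start in the RefSeq entry, 5′ to 3′ on the gene's own strand. For H2-DMb2, H2-DMb1 and H2-Oa, and by a few bases H2-Ob, that start lies downstream of the start in the annotation behind the gene positions given further on, so those windows lie wholly or in part inside the annotated gene.
H2-Aa: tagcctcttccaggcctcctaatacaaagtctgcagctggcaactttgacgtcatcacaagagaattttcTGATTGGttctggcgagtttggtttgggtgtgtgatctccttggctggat
H2-Eb1: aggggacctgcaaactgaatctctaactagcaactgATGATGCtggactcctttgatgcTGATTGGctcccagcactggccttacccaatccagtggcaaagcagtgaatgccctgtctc
H2-DMb1: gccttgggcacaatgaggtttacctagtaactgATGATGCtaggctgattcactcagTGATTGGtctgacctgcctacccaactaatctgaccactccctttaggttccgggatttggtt
H2-DMb2: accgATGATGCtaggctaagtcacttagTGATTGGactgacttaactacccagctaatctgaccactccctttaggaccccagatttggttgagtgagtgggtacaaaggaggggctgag
H2-Oa: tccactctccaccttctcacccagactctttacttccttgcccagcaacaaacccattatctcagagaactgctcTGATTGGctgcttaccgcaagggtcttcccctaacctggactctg
H2-Ob: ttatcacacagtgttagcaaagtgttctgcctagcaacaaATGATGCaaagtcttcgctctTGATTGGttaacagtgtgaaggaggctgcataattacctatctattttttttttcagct
They stand at chr17:34287824-34287943 (H2-Aa, minus strand) and, on the plus strand, at chr17:34305747-34305866 (H2-Eb1), chr17:34153071-34153190 (H2-DMb1), chr17:34145129-34145248 (H2-DMb2), chr17:34092259-34092378 (H2-Oa) and chr17:34238785-34238904 (H2-Ob).

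Within the 250 bases upstream of a start, TGATTGG was found on either strand in 6 of the 7 matched genes, the 6 shown, and in 7.23% of all 32851 promoter windows of the same length. It began between 45 bases (H2-Oa) and 92 bases (H2-DMb2) before the start. The stretch ATGATGC was found in 4 of the 7 genes, H2-Eb1, H2-DMb1, H2-DMb2 and H2-Ob, and in 1.99% of all windows. In those 4 genes its first base lay 23, 24, 24 and 21 bases before the first base of the Y box. The shorter core ATTGG, which every TGATTGG contains, was present in all 7 genes and in 33.9% of all windows. A match is a description of these letters, not a bound site, and a window without one says nothing about the factor.

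Most of the genes lie together in the MHC. In build GRCm38, the mm10 build named in the submitters' processing notes, H2-Oa (chr17:34092340-34095234), H2-DMa (chr17:34119541-34139101), H2-DMb2 (chr17:34143307-34151555), H2-DMb1 (chr17:34153072-34160230), H2-Ob (chr17:34238903-34254414), H2-Ab1 (chr17:34257689-34269419) and H2-Eb1 (chr17:34305867-34316674) are on the plus strand, and H2-Aa (chr17:34282744-34287823) is on the minus strand. Ciita is on chromosome 16 (10480059 to 10528418) and Cd74 on chromosome 18 (60803848 to 60812652), both on the plus strand. Positions are of whole genes, with their exons and introns, from the GENCODE annotation supplied for the build. Strand handling is not given in the sources used here, and H2-Eb1, H2-DMa, H2-Oa and Ciita overlap a gene on the opposite strand (Gm20513 for H2-Eb1, Brd2 among others for H2-DMa, BC051537 for H2-Oa, Dexi for Ciita). H2-DMb1 and H2-DMb2 are near copies: 20.4% of the 50-base windows in the last 500 bases of H2-DMb1, the stretch that this 3' assay reads, also occur in H2-DMb2, so a part of the reads could be split or dropped between them.

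The deposited libraries held 8445 (DATK32), 8387 (MECA-367) and 10826 (rat IgG) barcodes with 27846540 to 30359331 UMIs each, and 5852, 5890 and 7367 cells were kept, with median depths of 1524.5, 1824.5 and 1469 UMIs. Any pair of libraries shared 18 to 20 barcode sequences. Cells were put in classes by cluster without the 10 genes, from fixed marker lists. Although the labels describe a CD45 sort, 5462 epithelial cells and 2886 fibroblasts were present, and Ptprc, which encodes CD45, was detected in 1.0%, 1.65% and 1.82% of the epithelial cells of DATK32, MECA-367 and rat IgG. Sub-clusters with markers of more than 1 lineage were set apart (741, 868 and 1405 cells), and these held 41.8%, 39.0% and 42.3% of the core class II UMIs of their library. Doublet scores separated almost no cell, so doublets remain. All marker lists of the named classes were borne out by at least 6 markers seen in 5% or more of the cells; Cd163 and Folr2 were at 0 in macrophages, Cd207 in dendritic cells and Ltb4r1 in ILC3.

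Levels are counts per 1000000 UMIs of a class in a library (CPM), with exact Poisson 95% intervals in brackets, and shares of cells carry exact (Clopper-Pearson) 95% intervals; both cover counting error only. The core sum adds H2-Aa, H2-Ab1, H2-Eb1 and Cd74. Conventional dendritic cells, the chief activators of naive T cells, stood highest together with the macrophage class. That class also held monocyte and neutrophil markers, whose values are given with its comparison. Dendritic cells held 29547 CPM [28304 to 30830] in DATK32, 26791 CPM [25707 to 27908] in MECA-367 and 29674 CPM [28507 to 30877] in rat IgG, from 47, 36 and 70 cells. They came from a single sub-cluster led by Klrd1, Cd7, P2ry10, Cd209a, Kit and Ccr7, of which Cd209a is in the marker list; Klrd1 and Cd7 are also genes of NK and T cells. Macrophages held 23634 CPM [22671 to 24627] in DATK32, 26034 CPM [25187 to 26902] in MECA-367 and 32365 CPM [31286 to 33472] in rat IgG, from 52, 61 and 77 cells. The ranges of these neighbouring classes overlap over the libraries, so their order is not fixed.

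B cells, which present the antigen that their own receptor captures, came next in every library, with 15468 CPM [14472 to 16514] in DATK32, 17967 CPM [17184 to 18777] in MECA-367 and 15820 CPM [15387 to 16262] in rat IgG, from 58, 116 and 308 cells. Monocytes, the blood-borne precursors of gut macrophages, followed with 4684 CPM [4408 to 4973] in DATK32, 6236 CPM [5947 to 6535] in MECA-367 and 6508 CPM [6112 to 6923] in rat IgG, from 142, 122 and 140 cells. No library's monocyte value reached the B cell value of any library, and no B cell value reached a dendritic cell or macrophage value. Plasma cells, the antibody-secreting end of the B lineage, stood at 1623 CPM [1533 to 1717] in DATK32, 1733 CPM [1661 to 1808] in MECA-367 and 2041 CPM [1958 to 2126] in rat IgG.

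**Figure D1:**
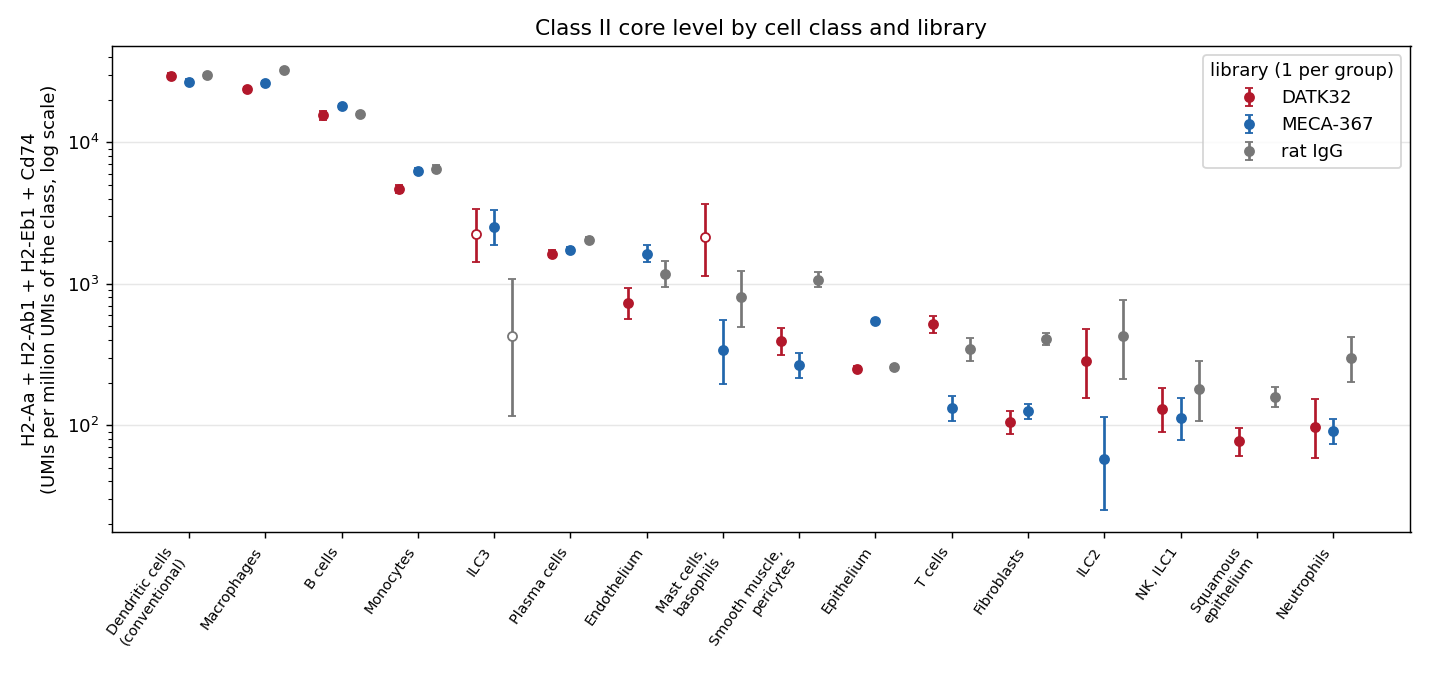
Level of the core sum (H2-Aa, H2-Ab1, H2-Eb1 and Cd74, in CPM, on a log axis) in each cell class and library, with exact Poisson 95% intervals; open points mark classes with fewer than 20 cells in that library. Dendritic cells, macrophages and B cells lie at or above 15468 CPM in all 3 libraries, and the MECA-367 point for epithelium (548 CPM) stands above the DATK32 and rat IgG points (249.9 and 256 CPM).

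With the libraries joined, endothelium stood below the plasma cells, epithelium below endothelium and fibroblasts below epithelium. Single libraries differed: in MECA-367 the endothelial interval overlapped that of plasma cells, and in rat IgG fibroblasts stood above epithelium. Endothelium, which lines the vessels, held 728 CPM [560 to 932] in DATK32, 1632 CPM [1412 to 1876] in MECA-367 and 1179 CPM [948 to 1449] in rat IgG. Epithelium, the absorptive and secretory lining, held 249.9 CPM [239.6 to 260.6] in DATK32, 548 CPM [529 to 567] in MECA-367 and 256 CPM [245 to 267] in rat IgG. Fibroblasts held 104 CPM [86.1 to 126] in DATK32, 126 CPM [111 to 142] in MECA-367 and 407 CPM [370.03 to 446.5] in rat IgG. Neutrophils, which served as a class with little class II, held 97.3, 91.1 and 298 CPM in DATK32, MECA-367 and rat IgG, so epithelium stood above them in DATK32 and MECA-367 and below them in rat IgG, where only 132 neutrophils were kept. In rat IgG 20 of the 31 neutrophil core UMIs lay in 2 cells, and without the 2 highest cells the neutrophils held 108 CPM and the epithelium 251 CPM, which turns that order.

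Shares of cells put B cells first, with intervals that overlapped those of dendritic cells in every library. After each cell was thinned to 500 UMIs, at least 1 core UMI was found in 100%, 100% and 99.0% of B cells of DATK32, MECA-367 and rat IgG. The shares were 91.5%, 97.2% and 92.9% in dendritic cells and 84.6%, 90.2% and 97.4% in macrophages. Monocytes stood at 41.5% [33.3 to 50.1] in DATK32, 53.3% [44.0 to 62.4] in MECA-367 and 59.3% [50.7 to 67.5] in rat IgG, and their core UMIs were uneven: the tenth of monocytes with the most core UMIs held 60.7%, 49.8% and 48.7% of them in these thinned cells. Neutrophils, taken here as the background, gave 3.37%, 3.53% and 4.55%, and T cells 3.38%, 3.57% and 6.74%. Fibroblasts at 2.31% and 3.497% in DATK32 and MECA-367 were at that background, and at 6.87% [5.41 to 8.57] in rat IgG their interval overlapped that of the neutrophils.

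The classical chains ran closely together. H2-Aa and H2-Ab1 are the alpha and beta chains of I-A, the class II molecule of this strain, and H2-Eb1 is the beta chain of I-E, which C57BL/6 mice do not bring to the surface for want of its alpha chain. With the libraries joined, dendritic cells held 5315 CPM of H2-Aa, 6662 CPM of H2-Ab1 and 5399 CPM of H2-Eb1, and macrophages 5263, 5757 and 4382 CPM. B cells held 3614, 3191 and 2502 CPM of the same genes and monocytes 976, 1399 and 709 CPM. With the libraries joined, H2-Ab1 thus exceeded H2-Aa in dendritic cells, macrophages and monocytes, and was below it in B cells, although in the DATK32 B cells it was the higher (2880 CPM, beside 2794 CPM of H2-Aa). These levels compare directly because this 3' assay counts a transcript once, whatever its length, and they still assume equal capture of each gene. Of the 10 genes, Cd74 was the most abundant in each of those 4 classes, with 11227 CPM in dendritic cells, 11916 CPM in macrophages, 6955 CPM in B cells and 2680 CPM in monocytes.

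**Figure D2:**
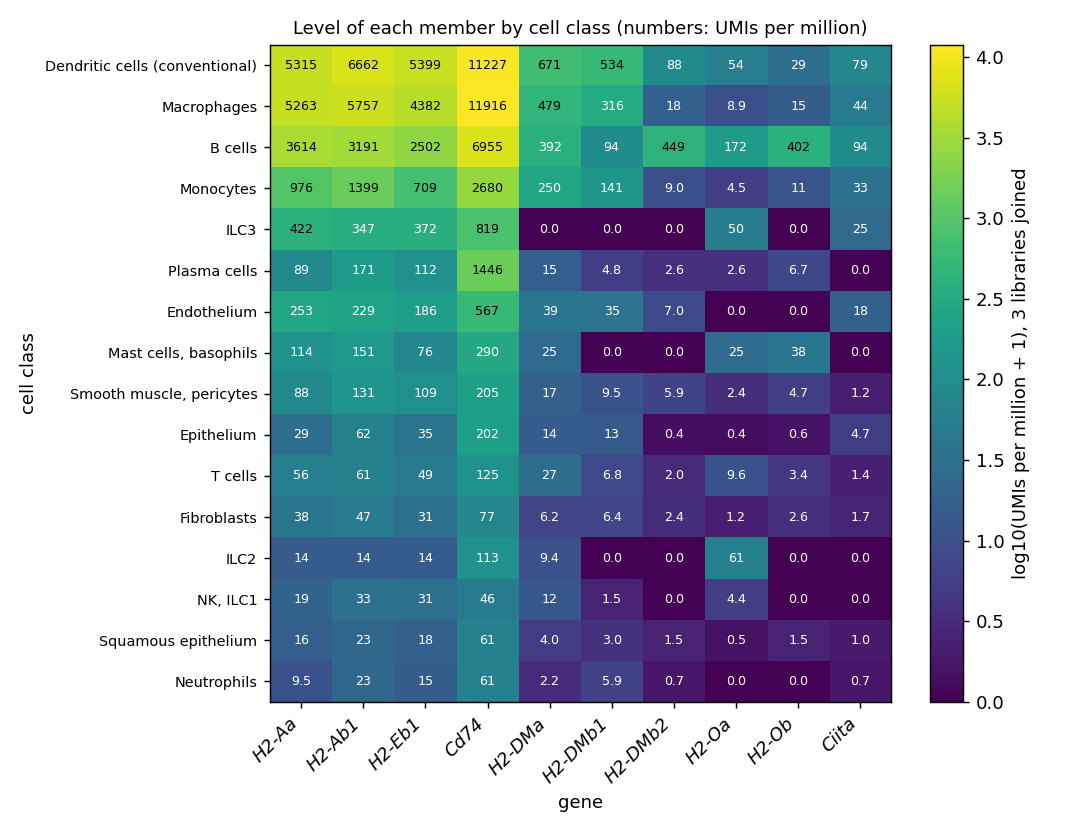
Level of each of the 10 genes in each cell class with the libraries joined; numbers are CPM and the colour is log10 of CPM plus 1. The chains and Cd74 are high in dendritic cells, macrophages and B cells, while H2-DMb2, H2-Oa and H2-Ob peak in B cells.

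The editor H2-DM was split by lineage through its beta chains. H2-DMa, the alpha chain, held 671 CPM [572 to 783] in dendritic cells, 479 CPM [408 to 559] in macrophages, 392 CPM [338 to 451] in B cells and 249.8 CPM [213 to 291] in monocytes. H2-DMb1 held 534 CPM [445 to 634] in dendritic cells and 94.3 CPM [69.1 to 126] in B cells. H2-DMb2, encoded next to it, held 449 CPM [392 to 513] in B cells and 87.5 CPM [54.2 to 134] in dendritic cells. As a share of the UMIs of both beta genes, H2-DMb2 made up 90.5%, 80.9% and 82.2% in B cells of DATK32, MECA-367 and rat IgG, against 12.5%, 16.7% and 12.7% in dendritic cells. It made up 5.31% [1.97 to 11.2] in macrophages, 6.0% [2.23 to 12.6] in monocytes and 2.86% [1.31 to 5.35] in epithelium with the libraries joined. Every library showed the B cell share far above that of dendritic cells, although the shared 3' sequence of the pair means that the exact shares depend on how reads were assigned.

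The inhibitor H2-O was mostly a B cell product. H2-Ob, its beta chain, held 535 CPM [363 to 759] in DATK32, 436 CPM [322 to 579] in MECA-367 and 366 CPM [303 to 439] in rat IgG B cells, and 29.2 CPM [11.7 to 60.1] in dendritic cells with the libraries joined. H2-Oa, its alpha chain, rested on 3, 25 and 56 UMIs in B cells of DATK32, MECA-367 and rat IgG, or 51.7 CPM [10.7 to 151], 227 CPM [147 to 336] and 175 CPM [132 to 228]. As a share of all H2-DM and H2-O UMIs, H2-O took 42.5%, 43.7% and 35.4% in B cells of the 3 libraries in that order, and 6.06% [3.74 to 9.21] in dendritic cells, 2.83% [1.23 to 5.49] in macrophages and 3.62% [1.75 to 6.56] in monocytes with the libraries joined. Outside these classes H2-Oa was seen without its partner in ILC2, the type 2 innate lymphoid cells, with 6, 6 and 1 UMIs in 6, 6 and 1 cells of DATK32, MECA-367 and rat IgG. None of those 13 cells held a UMI of a B cell marker, and H2-Ob was at 0 UMIs in ILC2, which allows up to 60.9, 21.8 and 117 CPM in those libraries (3 counts each). H2-Oa UMIs were also seen in other lymphoid classes, but not all at the ILC2 level. With the libraries joined, ILC3 held 2 H2-Oa UMIs and NK cells with ILC1 held 3, with H2-Ob at 0 in both. T cells held 14 H2-Oa UMIs beside 5 of H2-Ob. H2-Oa stood at 61.1 CPM [32.5 to 104] in ILC2 and 49.6 CPM [6.01 to 179] in ILC3. It stood at 4.44 CPM [0.916 to 12.98] in NK cells with ILC1 and 9.56 CPM [5.23 to 16.05] in T cells. The ILC2 interval lay above those of NK cells with ILC1 and T cells and overlapped that of ILC3.

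Ciita, the switch, was rare everywhere. B cells held 94.3 CPM [69.1 to 126], dendritic cells 79.2 CPM [47.7 to 124], macrophages 44.4 CPM [24.8 to 73.2] and monocytes 33.1 CPM [20.7 to 50.1] with the libraries joined, and the B cell and dendritic cell intervals overlap. Plasma cells held 0 Ciita UMIs among 670 cells, which allows up to 4.01, 2.42 and 2.65 CPM in DATK32, MECA-367 and rat IgG, yet kept 1446 CPM [1404 to 1489] of Cd74. Their chains were lower, with 88.7 CPM of H2-Aa, 171 CPM of H2-Ab1 and 112 CPM of H2-Eb1. Cd74 made up 85.5%, 78.7% and 77.2% of the plasma cell core sum in DATK32, MECA-367 and rat IgG, against 42.8% [41.7 to 43.9] in B cells with the libraries joined. In epithelium the share was also high, at 62.5%, 62.6% and 58.9% in the 3 libraries, and in dendritic cells, macrophages and monocytes it was 39.3% [38.1 to 40.4], 43.6% [42.6 to 44.6] and 46.5% [44.9 to 48.1].

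**Figure D3:**
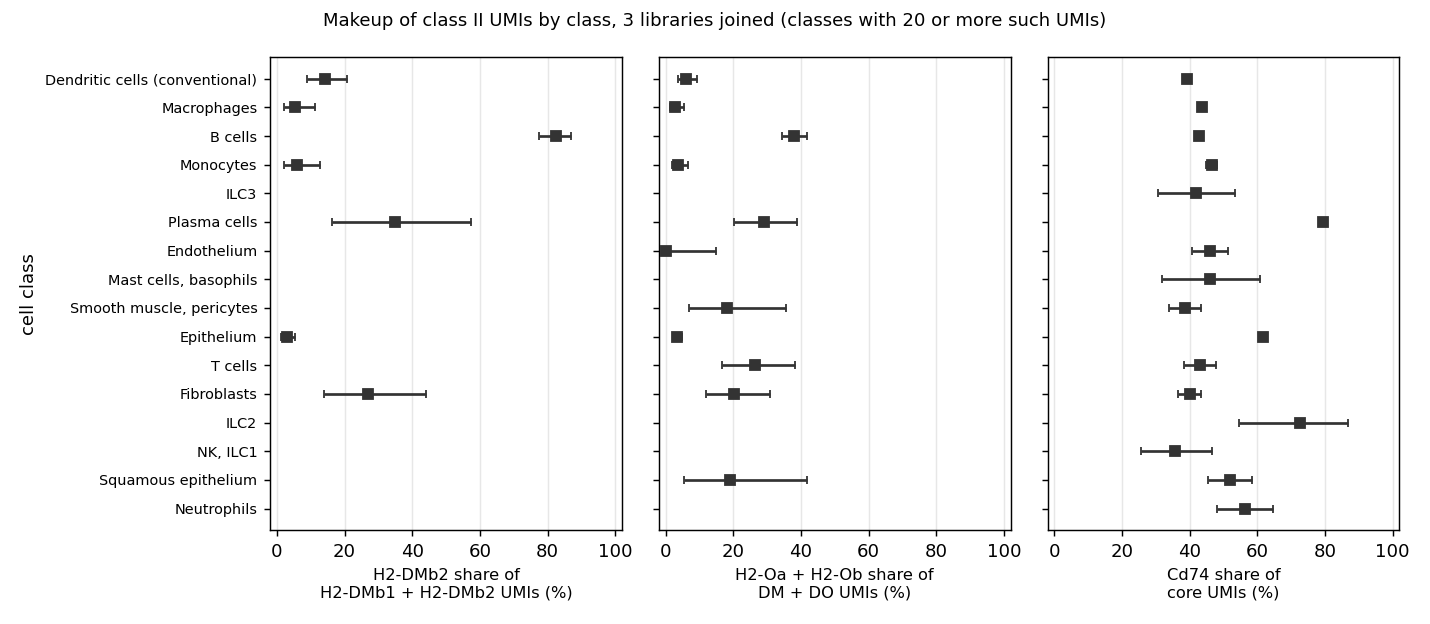
Share of H2-DMb2 among the H2-DMb1 and H2-DMb2 UMIs, of H2-O among the H2-DM and H2-O UMIs, and of Cd74 among the core UMIs (percent, libraries joined, exact binomial 95% intervals), for classes with at least 20 such UMIs. B cells stand apart for H2-DMb2 (82.6%), and the Cd74 share is 79.5% in plasma cells, 72.7% in ILC2 (33 UMIs) and 61.5% in epithelium.

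The libraries were compared class by class with a fold of 1.5 in CPM as the threshold, for genes with at least 100 counts over both libraries. Log2 ratios add 1 count to each count, and 1.5-fold is 0.585 on that scale. The DATK32 and MECA-367 comparisons share the rat IgG library, so their values stand side by side and are not independent.

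In dendritic cells (36 cells in MECA-367 and 47 in DATK32, a small class), the core log2 ratio was -0.01 for DATK32 against rat IgG, -0.15 for MECA-367 against rat IgG and 0.14 for DATK32 over MECA-367. None of 4 members tested passed in DATK32 against rat IgG, where 5.63% of all tested genes of the class did. In MECA-367 against rat IgG 1 of 5 passed, against 18.1% of all genes, and in DATK32 against MECA-367 1 of 5, against 17%. The gene was H2-DMa each time, with 583 CPM [420.5 to 789] in DATK32, 908 CPM [718 to 1133] in MECA-367 and 500.1 CPM [359 to 678] in rat IgG. These are 42, 78 and 41 UMIs, and the MECA-367 interval overlaps that of DATK32 and not that of rat IgG. The gene reached 100 counts only in the pairs that hold MECA-367, where it was high, so these calls carry no weight.

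The macrophage core sum was lower in both antibody libraries without reaching the fold, and for MECA-367 the direction turned under other settings (log2 ratio 0.21 with a 5% mitochondrial limit and 0.28 with the members kept in the clustering). The core log2 ratio was -0.45 for DATK32 against rat IgG, -0.31 for MECA-367 against rat IgG and -0.14 for DATK32 over MECA-367. None of the 4, 5 and 5 members tested passed, where 14%, 22.3% and 17.5% of all genes of the class did. Cd74 held 10020 CPM [9397 to 10674] in DATK32, 11443 CPM [10884 to 12023] in MECA-367 and 14268 CPM [13555 to 15009] in rat IgG. H2-Aa, H2-Ab1 and H2-Eb1 were also highest in rat IgG, and the rat IgG intervals of these 4 genes lay apart from those of both antibodies. H2-DMa did not follow, with 489.5, 474 and 476 CPM in DATK32, MECA-367 and rat IgG. The marker makeup of the class differed as well. Macrophage markers summed to 3094, 4380 and 5162 CPM in DATK32, MECA-367 and rat IgG (7, 7 and 8 of 10 detected). Monocyte markers summed to 4458, 8068 and 1953 CPM (all 8 detected in each library), and neutrophil markers to 7385, 6042 and 4810 CPM. Their part in the core difference was not tested.

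The monocyte class was made of 3 sub-clusters, of which the one led by S100a9 and S100a8 held 2 neutrophil markers and no monocyte marker among its 10 leading genes. The class is therefore not compared as a whole, and its values are a description. The core log2 ratio of the class was -0.47 for DATK32 against rat IgG, -0.06 for MECA-367 against rat IgG and -0.41 for DATK32 over MECA-367. H2-Eb1, with 523, 759 and 892 CPM in DATK32, MECA-367 and rat IgG, was the 1 of 4 members past the fold in the first of these, where 6.76% of all genes passed; none of 5 passed in the others (13.2% and 10.2% of all genes).

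The sub-clusters did not move alike. In the S100a9 sub-cluster (57, 55 and 36 cells of DATK32, MECA-367 and rat IgG) the core sum was 4037 CPM [3678 to 4422] in DATK32, 5884 CPM [5511 to 6275] in MECA-367 and 1395 CPM [1079 to 1775] in rat IgG, so both antibody libraries were higher there. In the sub-cluster led by Il12a and Nos2 (46, 38 and 32 cells) it was 3696 CPM [3245 to 4192] in DATK32, 6116 CPM [5606 to 6660] in MECA-367 and 6616 CPM [5804 to 7511] in rat IgG, and DATK32 was the lowest. In the sub-cluster led by Xylt1 and Fn1 (39, 29 and 72 cells) it was 7531 CPM [6781 to 8341] in DATK32, 8016 CPM [7129 to 8984] in MECA-367 and 9848 CPM [9132 to 10604] in rat IgG, and rat IgG was the highest.

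Without the S100a9 sub-cluster, a choice made after seeing the data, the core sum was 5335 CPM [4920 to 5776] in DATK32, 6685 CPM [6236 to 7157] in MECA-367 and 8761 CPM [8210 to 9339] in rat IgG, with the intervals apart. H2-Eb1 held 455 CPM [340 to 596] in DATK32, 769.7 CPM [623 to 941] in MECA-367 and 1229 CPM [1028 to 1457] in rat IgG, in the same order. The core log2 ratio of DATK32 against rat IgG was then -0.71, past the fold, and the other ratios stayed under it, at -0.39 for MECA-367 against rat IgG and -0.32 for DATK32 over MECA-367.

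In B cells the core sum stayed under the fold in every comparison, with log2 ratios of -0.03 for DATK32 against rat IgG, 0.18 for MECA-367 against rat IgG and -0.22 for DATK32 over MECA-367. None of 7 members passed in either comparison with rat IgG, where 15.2% (DATK32) and 21.2% (MECA-367) of all genes did. H2-Aa was the 1 of 4 that passed in DATK32 against MECA-367 (14% of all genes), with 2794 CPM [2380 to 3258] in DATK32, 4337 CPM [3957 to 4744] in MECA-367 and 3514 CPM [3311 to 3725] in rat IgG, and a log2 ratio of -0.63. The other chains, H2-Ab1 with 2880, 3546 and 3126 CPM and H2-Eb1 with 2604, 2855 and 2362 CPM in the same order, stayed under the fold.

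In epithelium, the lining of the gut, all 6 members tested were higher in MECA-367 than in rat IgG by more than 1.5-fold, beside 5.85% of all genes of the class that passed in either direction (233 higher and 312 lower of 9322). None of the 6 passed in DATK32 against rat IgG (1.92% of all genes), and all 6 were lower in DATK32 than in MECA-367 (3.74% of all genes). The core log2 ratios were -0.04 for DATK32 against rat IgG, 1.10 for MECA-367 against rat IgG and -1.13 for DATK32 over MECA-367. With cells assigned to classes by their own marker UMIs, the core log2 ratio of MECA-367 against rat IgG was 0.57, short of the fold, as were H2-Aa (0.06), H2-Ab1 (0.42) and H2-Eb1 (0.48). Over the 6 genes the median log2 ratio of MECA-367 against rat IgG was 0.97, and over all 9322 genes tested it was -0.04.

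Cd74 carried most of these UMIs, with 156 CPM [148 to 165] in DATK32, 343 CPM [328 to 358] in MECA-367 and 151 CPM [143 to 159] in rat IgG. The I-A chain H2-Ab1 held 49.3 CPM [44.8 to 54.1] in DATK32, 96.8 CPM [89.0 to 105] in MECA-367 and 50.8 CPM [46.1 to 55.9] in rat IgG. Its partner H2-Aa held 21.4 CPM [18.5 to 24.7], 45.6 CPM [40.3 to 51.4] and 24.8 CPM [21.6 to 28.4] in DATK32, MECA-367 and rat IgG. For all 3 genes MECA-367 stood above the other libraries with the intervals apart.

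H2-Eb1 behaved alike, with 22.9 CPM [19.9 to 26.3] in DATK32, 62.6 CPM [56.3 to 69.3] in MECA-367 and 29.7 CPM [26.1 to 33.6] in rat IgG. Of the editor, H2-DMa held 9.36 CPM [7.46 to 11.6] in DATK32, 24.4 CPM [20.6 to 28.7] in MECA-367 and 12.0 CPM [9.81 to 14.6] in rat IgG. H2-DMb1 held 12.1 CPM [9.89 to 14.6], 19.3 CPM [15.9 to 23.2] and 10.1 CPM [8.10 to 12.5] in DATK32, MECA-367 and rat IgG. Both were highest in MECA-367, and the 4 members under 100 counts were Ciita, H2-DMb2, H2-Oa and H2-Ob. Ciita had 45, 40 and 23 UMIs in DATK32, MECA-367 and rat IgG, or 5.08 CPM [3.70 to 6.79], 6.78 CPM [4.84 to 9.23] and 2.74 CPM [1.74 to 4.12]. H2-DMb2, H2-Oa and H2-Ob had at most 9 UMIs in any library of this class, and rat IgG had the most of each.

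**Figure D4:**
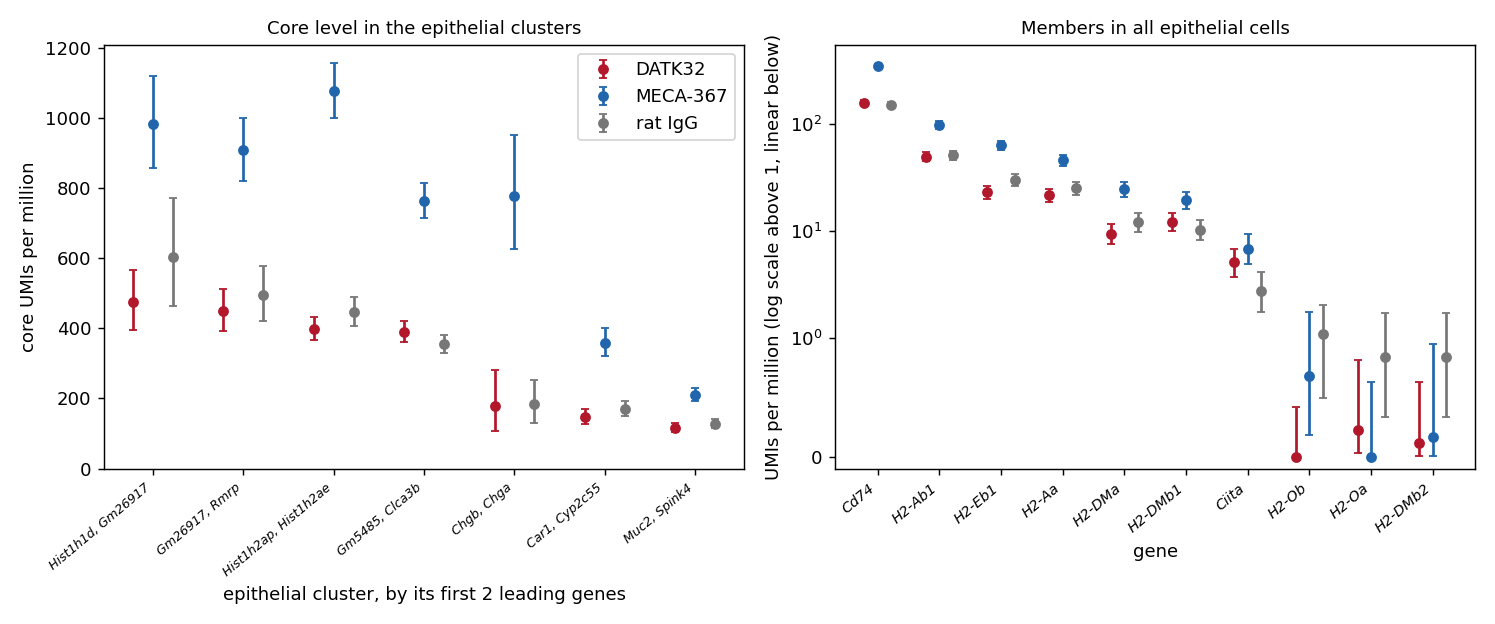
Core sum (CPM, with exact Poisson 95% intervals) in the 7 epithelial clusters by library on the left, and each of the 10 genes in epithelium by library on the right (axis linear below 1 CPM and logarithmic above). The MECA-367 point is above the DATK32 and rat IgG points in all 7 clusters.

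The difference was present in every epithelial cluster. In the goblet cell cluster led by Muc2 and Spink4, the core sum was 117, 210.4 and 127 CPM in DATK32, MECA-367 and rat IgG. In the cluster led by Car1 and Cyp2c55, genes of surface colonocytes, it was 147, 359 and 170.2 CPM in that order. In the dividing cells led by Hist1h2ap and Top2a it was 398, 1076 and 446 CPM. The cluster led by Chgb and Chga, markers of enteroendocrine cells, gave 179.9, 777 and 184 CPM from 40, 32 and 69 cells. In all 7 clusters MECA-367 exceeded both other libraries past the fold with the intervals apart, with log2 ratios of 0.69 to 2.05 against rat IgG and an equal-weight mean of 1.11. The log2 ratios of DATK32 against rat IgG ran from -0.35 to 0.14 and passed the fold in none.

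More epithelial cells carried the transcripts in MECA-367. At 500 UMIs per cell the share with at least 1 core UMI was 12.9% [11.4 to 14.4] in DATK32, 23.7% [21.4 to 26.1] in MECA-367 and 9.85% [8.63 to 11.2] in rat IgG. UMIs of at least 2 of the 4 core genes were seen in 1.40% [0.933 to 2.02], 3.62% [2.66 to 4.802] and 1.19% [0.776 to 1.73] of the cells of those libraries. Without thinning, the shares with a core UMI were 37.0%, 55.9% and 33.2%, at median depths of 3580, 2062 and 3274 UMIs. The shares at 500 UMIs were all above the 3.37% to 4.55% of neutrophils. Smooth muscle and pericytes, also taken as low in class II, gave 4.29%, 1.78% and 14.8% [10.3 to 20.4] in DATK32, MECA-367 and rat IgG. Epithelium stood above them in DATK32 and MECA-367 and below them, with overlapping intervals, in rat IgG. Mast cells or basophils gave 14.3%, 6.06% and 15% from 7, 33 and 20 cells, with wide intervals. Without the 1% of epithelial cells with the most core UMIs, the core sum was 209, 477 and 216 CPM in DATK32, MECA-367 and rat IgG.

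The summed macrophage and monocyte markers in epithelium were highest in MECA-367 in every cluster except that led by Gm26917 and Rmrp. Of the 10 macrophage markers, only 7 were found more often in macrophages than in the other classes, so these sums need not be phagocyte RNA. The Gm26917 and Rmrp cluster had 260, 287 and 378 CPM in DATK32, MECA-367 and rat IgG. The Car1 cluster had 1191, 1502 and 1229 CPM and the Muc2 cluster 1350, 1651 and 1351 CPM in that order. The part of these markers in the class II difference was not tested. Read singly, leukocyte genes other than Igha had few UMIs and did not all point one way. Cd79a, a B cell receptor component, had 3, 6 and 16 UMIs in DATK32, MECA-367 and rat IgG epithelium, Ms4a1 3, 0 and 8, and Lyz2 11, 8 and 9. The complement gene C1qa, a macrophage marker, had 6, 40 and 8, Ptprc 26, 23 and 46, and the dendritic cell gene Flt3 0, 0 and 1. Igha, the antibody transcript of plasma cells, was found in 53.1%, 57.2% and 63.1% of epithelial cells of DATK32, MECA-367 and rat IgG, and whether this is free RNA or doublets was not tested. After cells with a UMI of any of 8 leukocyte genes were removed (43, 52 and 80 cells), the core sum was 241, 543 and 241 CPM in DATK32, MECA-367 and rat IgG. The makeup also differed, since clusters with Gm26917 among their leading genes held 35.3%, 46.0% and 17.7% of the epithelial cells. Core sums were given within clusters above, whereas the shares of cells and the gene levels were taken over the whole class and include this makeup.

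Fibroblasts differed in the other direction, with low counts. The core log2 ratio was -1.95 for DATK32 against rat IgG, -1.69 for MECA-367 against rat IgG and -0.26 for DATK32 over MECA-367. Cd74 held 37.0 CPM [26.4 to 50.3] in DATK32, 44.5 CPM [35.8 to 54.6] in MECA-367 and 178 CPM [154 to 205] in rat IgG. H2-Aa held 21.3, 18.6 and 89.4 CPM and H2-Ab1 24.96, 38.6 and 85.8 CPM in that order. The 3 members tested were lower in DATK32 than in rat IgG (5.25% of all genes passed) and the 4 tested were lower in MECA-367 (16.8%), and most of them reached 100 counts through the rat IgG library, where they were high, so these counts carry no weight. In DATK32 against MECA-367 1 of 2 passed, H2-Ab1 at -0.60 (15.2% of all genes). H2-Ab1 reached 100 counts there through MECA-367, where it was high, so this call carries no weight either.

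Markers of leukocytes moved with the fibroblast values. Cd79a had 5, 9 and 26 UMIs in DATK32, MECA-367 and rat IgG fibroblasts, Ms4a1 2, 0 and 9, and Lyz2 10, 20 and 31, and rat IgG was highest for each. The B cell gene H2-DMb2 had 2, 1 and 7 UMIs beside 4, 15 and 8 of H2-DMb1. Without cells holding a leukocyte marker UMI, the core sum was 40.7, 70.8 and 196 CPM. Smooth muscle and pericytes, which served as another class with little class II, showed the same pattern, with 393, 266 and 1070.0 CPM in DATK32, MECA-367 and rat IgG before that removal and 58.6, 109 and 671 CPM after it. The part of leukocyte RNA in the remaining difference was not tested.

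Endothelial values rested on few UMIs and on single cells. The 63, 198 and 90 core UMIs of DATK32, MECA-367 and rat IgG gave log2 ratios of -0.69 for DATK32 against rat IgG, 0.46 for MECA-367 against rat IgG and -1.15 for DATK32 over MECA-367. A single MECA-367 cell held 94 of the 198. Without the 2 cells with the most core UMIs in each library, the levels were 543, 845 and 861 CPM, and MECA-367 no longer exceeded rat IgG. After cells with a leukocyte marker UMI were removed (2, 3 and 2 cells), they were 658, 853 and 1206 CPM. The thinned share of endothelial cells with a core UMI was 19.2% [10.9 to 30.1] in DATK32, 23.0% [14.0 to 34.2] in MECA-367 and 26.0% [16.5 to 37.6] in rat IgG, with wide overlap and above the neutrophil background. Cd74 led in this class too, with 358, 668 and 642 CPM, and H2-Oa and H2-Ob were at 0 UMIs in all 3 libraries.

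Innate lymphoid cells were few. ILC3, a subset known to present antigen through class II in the gut, were only 10, 21 and 12 cells in DATK32, MECA-367 and rat IgG, and a ratio was not formed where a library held fewer than 20. Their core sum was 2248 CPM [1425 to 3373] in DATK32, 2519 CPM [1882 to 3304] in MECA-367 and 425 CPM [116 to 1087] in rat IgG. In DATK32 and MECA-367 this stood above the plasma cell level, with overlapping intervals in DATK32. The ILC3 core UMIs numbered 23, 52 and 4, of which 19, 26 and 3 lay in the 2 highest cells of each library. Without those cells ILC3 held 496 CPM in DATK32 and 1407 CPM in MECA-367. Plasma cells without their 2 highest cells held 1548 and 1454 CPM, which turns that order. Of the core genes, Cd74 had 4, 26 and 3 UMIs, H2-Ab1 3, 11 and 0, H2-Aa 8, 8 and 1 and H2-Eb1 8, 7 and 0. With the libraries joined, H2-Oa had 2 UMIs and Ciita 1, while H2-DMa, H2-DMb1, H2-DMb2 and H2-Ob were at 0. Cd79a, C1qa and Flt3 were at 0 UMIs in these cells as well. ILC2 held 14, 8 and 11 core UMIs in 49, 132 and 34 cells, and NK cells with ILC1 held 33, 36 and 18 in 224, 258 and 124 cells. At 500 UMIs the share with a core UMI in NK cells with ILC1 was 6.70%, 3.88% and 5.65%, with intervals that overlap those of neutrophils.

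In T cells the DATK32 value of 515 CPM, beside 132 CPM in MECA-367 and 343 CPM in rat IgG, came mainly from a single cell with 168 of 215 core UMIs. Without the 2 highest cells of each library the values were 95.8, 45.4 and 221 CPM, so the higher DATK32 value against rat IgG did not remain.

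Other genes of the pathway were read from 6 lists. The enhanceosome list (Rfx5, Rfxap, Rfxank, Nfya, Nfyb, Nfyc and Creb1) holds the factors that dock Ciita at X and Y boxes. All 7 were tested in epithelium and none passed the fold against rat IgG in either antibody library. Of all genes of the class, 1.92% (DATK32) and 5.85% (MECA-367) passed there. In DATK32 against MECA-367 only Rfxank passed (3.74% of all genes did), with 9.02 CPM in DATK32 and 5.59 CPM in MECA-367. Of the 8 interferon gamma genes in epithelium, 3 were higher in DATK32 than in rat IgG, where 1.92% of all genes passed. The same 3 were higher in MECA-367 than in rat IgG (5.85% of all genes), and none was lower. They were Irf1, a transcription factor induced by interferon, with 444, 375 and 224 CPM in DATK32, MECA-367 and rat IgG, Socs1, a feedback inhibitor, with 11.2, 20.01 and 5.84 CPM, and Gbp2, a guanylate-binding protein, with 7.78, 13.7 and 4.65 CPM. Socs1 and Gbp2 were lower in DATK32 than in MECA-367 past the fold, and Irf1 was not.

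Of the 6 endosomal genes tested in epithelium, the processing enzyme Lgmn alone passed in MECA-367 against rat IgG (49.2 and 27.6 CPM). None passed in DATK32 against rat IgG. Of all genes of the class, 5.85% (MECA-367) and 1.92% (DATK32) passed. Among immune classes, Gbp2 in macrophages was 780 CPM in MECA-367 and 333 CPM in rat IgG, where 22.3% of all genes passed. No interferon gene reached 100 counts in macrophages in DATK32 against rat IgG. The Gbp2 call came through MECA-367, where the gene was high, so it carries no weight. In B cells Irf8 was 172 CPM in DATK32 and 313 CPM in rat IgG, from 10 and 100 UMIs, where 15.2% of all genes passed. It reached 100 counts through the rat IgG library, where it was high, so this call carries no weight either.

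In fibroblasts 3 of the 7 interferon genes tested were higher in MECA-367 than in rat IgG, where 16.8% of all genes passed. None of 5 passed in DATK32 against rat IgG (5.25% of all genes). Irf1 held 298, 615 and 213 CPM in DATK32, MECA-367 and rat IgG, and it was higher in MECA-367 than in rat IgG past the fold, as were Ifngr1 (237 and 148 CPM), Socs1 (46.4 and 23.7 CPM) and, of the lineage factors, Irf8 (159 and 91.2 CPM). Socs1 reached 100 counts there through MECA-367, where it was high, so its call carries no weight. Ifngr1, Irf1, Irf8 and Icosl were lower in DATK32 than in MECA-367, where 15.2% of all genes passed. Of the chain list, H2-Eb2 was counted mostly in B cells, at 115 CPM with the libraries joined, and reached 100 counts in no comparison; H2-Ea was not analysed here. In dendritic cells, macrophages, monocytes and B cells no enhanceosome gene reached 100 counts over any pair of libraries.

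Across 29 clusters with the libraries joined, the genes outside the 10 whose log2(CPM + 10) ran most like that of the core sum were Ctss (Pearson r = 0.84), Ly86 (0.83), Unc93b1 (0.80), Pld4 (0.80) and Rilpl2 (0.78), then Ifi209, Cd83, Ms4a4c, Fcgr2b and Man2b1 (0.77 to 0.74). Among the 10 themselves, Cd74 and H2-Ab1 followed the core sum with r = 0.99 and 0.98, of which they are a part, and H2-DMa with 0.85, H2-DMb1 with 0.80 and Ciita with 0.79. The B cell genes H2-DMb2 (0.67), H2-Ob (0.59) and H2-Oa (0.58) followed it least. The clusters share libraries and differ in depth, and these correlations are a description only.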

How the data were processed

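Per the labels' protocols, each group gave 1 library from the 10x 3' chemistry v3.1, and a single lane served all of them. The deposited values are raw UMI counts per gene and barcode. The authors used Cell Ranger 6.0.2 with mm10, per the submitters' processing notes; the annotation, the strand setting and any cell filter are not given in the sources used here.

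Kept cells were scaled to equal totals and clustered (scanpy 1.11.5, 2000 variable genes without the 10 members, 30 components, 15 neighbours; Leiden in igraph 0.11.9, resolution 1.0, seed 1). Clusters took class names from marker lists; score (1.0), lead (0.3) and marker-number thresholds were chosen with the data in view. Within the broad lineages, cells were clustered again, and sub-clusters with at least 3 markers of another lineage among their 10 leading genes were set apart as mixed. Scrublet called 1 DATK32 cell and none in MECA-367 or rat IgG, so it did not separate doublets and none were removed.

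Raw counts were summed per class and library. With 1 library per group no test was made, and cells were not treated as replicates. The fold of 1.5 applied to genes with at least 100 counts over both libraries; classes with fewer than 20 cells gave no ratio and those with fewer than 50 were called small. A count of 0 allows up to 3 counts. All 10 members were named, with list genes past the fold (except in monocytes, whose class is not compared, and 1 gene that is not reported here) and the 10 genes most like the core sum (at least 500 counts). The members and lists were chosen with earlier results of these data known. Ratio steps were tested on simulated data. Alternatives were cell filters, clustering, doublet removal, scaling (TMM in edgeR 4.0.16, R 4.3.3) and count minimums.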

Additional observations from a re-analysis of the deposited data

Results flagged for a closer look

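The core ratio of MECA-367 against rat IgG took opposite directions in 2 classes. It was 1.10 in epithelium (548 and 256 CPM) and -1.69 in fibroblasts (126 and 407 CPM), on the log2 scale. Both fell short of the fold under some alternative, at 0.57 in epithelium (per-cell class) and -0.32 in fibroblasts (none set apart). The difference between the classes was not tested, since each group is 1 library. Leukocyte markers moved with the fibroblast values: Cd79a had 9 UMIs in MECA-367 and 26 in rat IgG fibroblasts.

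Class II UMIs also appeared in barcodes that no comparison used. In barcodes left out by the cell filter, nearly all of them over the mitochondrial limit, the core sum was 422 CPM in DATK32, 816 CPM in MECA-367 and 441 CPM in rat IgG. In kept cells without a class name it was 1498 CPM in DATK32, 3777 CPM in MECA-367 and 1860 CPM in rat IgG, and MECA-367 was above the control library in both sets. Of the unnamed MECA-367 cells, 66 lay in a phagocyte sub-cluster led by Procr and Il27, with a core sum of 17312 CPM, where DATK32 had 16 cells (19343 CPM) and rat IgG had 7 (17715 CPM). These differences were not tested.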

How the results depend on the processing

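Of 283 core ratios recomputed under alternatives in the main classes, 221 kept their direction and side of the fold. Another 29, under the fold before and after, changed sign, among them macrophages for MECA-367 against rat IgG (0.21 and 0.28) and epithelium for DATK32 against rat IgG (up to 0.23). Of the others, 13 moved past the fold (3 with the opposite sign), 16 fell short of it and 4 past it reversed. The cause was not tested. In epithelium MECA-367 against rat IgG ranged from 0.57 (class by marker UMIs per cell, short of the fold) to 1.31, DATK32 against MECA-367 from -1.26 to -0.91, and DATK32 against rat IgG from -0.37 to 0.23. Under the per-cell class H2-Aa (0.06), H2-Ab1 (0.42) and H2-Eb1 (0.48) fell short. Endothelium was unstable. There DATK32 against rat IgG was 0.00090 (mean over cells) and 0.053 (5% mitochondrial limit), both reversed, -0.083 (no mitochondrial limit), -0.53 and -0.48 (resolutions 0.5 and 2.0), -0.51 (members kept in clustering) and -0.45 (no sub-cluster set apart). MECA-367 against rat IgG was 0.60 (TMM), -0.68 (Scrublet scores) and -1.59 (per-cell class). DATK32 against MECA-367 was -0.53 (mean over cells), -0.29 (Scrublet scores), -0.21 (cells with B or dendritic cell markers removed), -0.36 (leukocyte UMIs removed), -0.26 (5% limit), -0.38 (no limit), -0.19 (resolution 2.0) and -0.21 (members kept), and it reversed to 0.13 (per-cell class) and 0.0013 (none set apart). In monocytes MECA-367 against rat IgG was 0.70 (no limit), DATK32 against MECA-367 -0.88 (no limit), -0.76 and -0.73 (resolutions 0.5 and 2.0), and DATK32 against rat IgG -0.62 (members kept), -0.59 (none set apart) and -0.71 (without the S100a9 sub-cluster). In fibroblasts DATK32 against MECA-367 was -0.77 (leukocyte UMIs removed), -0.89 (no limit) and -1.28 (members kept), and MECA-367 against rat IgG -0.43 (members kept) and -0.32 (none set apart). Reversals in small counts were, in ILC2, DATK32 against MECA-367 at -0.050 (per-cell class) and DATK32 against rat IgG at 0.25 (resolution 0.5, and members kept), and, in T cells, DATK32 against MECA-367 at -1.07 (resolution 2.0) and -0.14 (members kept).

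Pairs past the fold in DATK32 against rat IgG, 1 over dendritic cells, macrophages, monocytes, B cells and epithelium, were 5 at 20 counts, 3 without the S100a9 sub-cluster, 4 with none set apart, 2 under TMM, mean over cells, per-cell class, 1000 UMIs with 500 genes, resolution 0.5 and members kept, and 0 at 500 counts, the 5% limit and resolution 2.0. MECA-367 against rat IgG, 7 in the same classes, gave 3 at 500 counts, 3 by per-cell class and 12 with no limit; DATK32 against MECA-367, 8 in them, gave 4 at 500 counts. The single calls of H2-Aa in B cells, H2-Eb1 in monocytes and H2-DMa in dendritic cells each fell short under some alternative. Removing leukocyte UMI cells, leaving out Gm26917 clusters or the S100a9 sub-cluster and setting no sub-cluster apart were chosen after seeing the data. No paired analysis was possible because each group is 1 library. Depth limits H2-DMb2, H2-Oa, H2-Ob and Ciita outside B cells and dendritic cells.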

Other observations

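Within macrophages both sub-clusters had the order of the class. The sub-cluster with Mrc1 and Pltp among its leading genes held a core sum of 21825 CPM in DATK32, 24636 CPM in MECA-367 and 32923 CPM in rat IgG. The sub-cluster led by Gdf15 and Hspa1b held 26367, 28052 and 31616 CPM. A squamous cluster of 171 DATK32 and 214 rat IgG cells, with none from MECA-367, held 76.9 and 159 CPM, and 53.4 and 62.7 CPM without cells holding a leukocyte marker UMI. The cells set apart as mixed held 2694 CPM in DATK32, 3051 CPM in MECA-367 and 3351 CPM in rat IgG.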
